A study of Mus musculus with 14 samples.

Results

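The genes described here are 33 lysosomal hydrolases, their activators and lysosomal membrane proteins. With earlier results of these data known, they were chosen by name for their place in the lysosome. Of these, 32 had a named probe on the arrays, among 20284 genes measured in all, and Cd68 had none and was not analysed here. The lysosome is the acidic compartment in which cells digest material taken up from outside and worn-out parts of their own. Its hydrolases each cut a particular bond, and loss of 1 of them lets the uncut substrate pile up, which is the basis of the lysosomal storage diseases. In dendritic cells the same compartment prepares antigen for display to T cells, and in neutrophils some lysosomal proteins lie in granules that are released on activation.

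RNA from sorted cells of C57BL/6 mice was measured on 14 one-colour arrays, which make 7 groups of 2. Bone marrow of mice labelled IRF8KO and of wild-type (WT) mice gave granulocyte-monocyte progenitors (GMP), which carry CD117 and CD16/32 but not CD115, Sca-1, IL-7R or lineage markers. IRF8 belongs to the interferon regulatory factors, which control transcription in blood cells. All further groups were wild type: common dendritic cell progenitors (CDP; bone marrow, intermediate CD117, with CD115 and CD135), precursors of classical dendritic cells (pre-cDC; bone marrow, with CD11c, CD135 and CD172a and no MHC-II), classical dendritic cells (cDC) of spleen that carry CD11c, MHC-II and either CD4 or CD8, and neutrophils (Neu; bone marrow, with CD11b and high Ly6G). The labels give no ages. None of the 33 genes encodes a marker used in these gates. Defining markers that had a probe were all well above background on the arrays of their own group. This held for the lists of GMP, of CDP and pre-cDC, of both cDC kinds and of neutrophils. Being above background does not alone check a label. Summed signals, in the array units given below, were highest in their own groups for the GMP, CD8+ cDC and neutrophil lists. The CDP and pre-cDC list did not set CDP apart from Neu. It summed to 453 and 462 in CDP, 558 and 542 in pre-cDC and 467 and 478 in Neu. The CD4+ cDC list summed to 87.1 and 89.4 in Neu, against 59.5 and 64.1 in CD4+ cDC, whose unit was taken over fewer probes.

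Several properties of the arrays bear on the results. The 75th percentile of signal, which served as each array's unit, was 508 to 584 on the 4 GMP arrays and 88.8 and 89.4 on the CDP arrays, with the other arrays of that design at 148 to 316. IRF8KO and WT GMP shared a slide, as did CD8+ cDC and Neu, while CDP, pre-cDC and CD4+ cDC each lay on a slide of their own. Slide and cell type therefore cannot be told apart in any comparison other than IRF8KO GMP with WT GMP and CD8+ cDC with Neu, and this includes Neu with WT GMP. Tissue and cell type likewise cannot be told apart between splenic CD8+ cDC and the bone marrow groups. The CD4+ cDC arrays are of a smaller design and had been purified with magnetic beads alone. The Irf8 probe read 6.03 and 5.99 on the 2 arrays labelled IRF8KO, against 4.61 and 4.69 on the WT GMP arrays, on the log2 scale explained below, and so was higher on the arrays labelled IRF8KO (log2 difference 1.36 ± 0.07 SE, limma adjusted p = 1.49e-05). No source used here says where this probe lies relative to the deleted part of the gene, so it does not check the label. The labels do not say whether the 2 arrays of a group came from separate animals, so p-values measure the spread between these arrays, which may be technical.

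Promoters of the genes were read from RefSeq (assembly GRCm38.p6), as the 250 bases before the start on the gene's own strand. Of the members, 30 had a promoter in that table, with 33 promoters in all, and Asah1, Galns and Npc1 had no entry. The letters CACGTG, an E-box that is the core of the element bound by the lysosomal regulator TFEB, were present on either strand in 7 of the 33 promoters (21.2%), against 6.02% of all 32851 promoters of the same length. The 7 genes were Arsa, Gaa, Glb1, Lamp1, Mcoln1, Naglu and Sgsh. The longer form TCACGTGA, which contains CACGTG, was found in the promoter of Mcoln1 alone, against 0.785% of all promoters. The ETS-IRF composite element was in 0 of the 33 promoters, against 2.30% of all, and the interferon response core was in the promoter of Lamp1 alone, against 2.98% of all. A match of letters is a description and not a shown binding site. The promoters below are those of 2 membrane proteins that hold the E-box more than once, and of the 2 enzymes whose signal was most above pre-cDC in CD8+ cDC, which hold none of these letters. CACGTG is in capitals. Lamp1 lies at chr8:13158911-13159160 on the plus strand, Mcoln1 at chr8:3500269-3500518 on the plus strand, Naaa at chr5:92278182-92278431 on the minus strand and Ppt1 at chr4:122835977-122836226 on the plus strand.
Lamp1: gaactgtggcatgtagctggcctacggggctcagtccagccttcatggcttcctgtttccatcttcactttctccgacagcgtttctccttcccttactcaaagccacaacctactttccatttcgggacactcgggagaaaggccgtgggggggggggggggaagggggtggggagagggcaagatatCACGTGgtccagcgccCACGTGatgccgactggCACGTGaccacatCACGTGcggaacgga
Mcoln1: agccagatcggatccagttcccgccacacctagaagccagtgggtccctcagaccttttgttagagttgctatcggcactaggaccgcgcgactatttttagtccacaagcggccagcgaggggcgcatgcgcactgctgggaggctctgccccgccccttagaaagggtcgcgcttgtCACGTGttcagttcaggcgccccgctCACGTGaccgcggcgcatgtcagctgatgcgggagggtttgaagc
Naaa: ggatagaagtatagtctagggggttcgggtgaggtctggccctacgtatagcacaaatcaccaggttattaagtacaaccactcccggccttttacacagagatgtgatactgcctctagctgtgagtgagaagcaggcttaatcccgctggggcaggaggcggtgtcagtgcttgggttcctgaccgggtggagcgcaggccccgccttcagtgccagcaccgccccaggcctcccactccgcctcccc
Ppt1: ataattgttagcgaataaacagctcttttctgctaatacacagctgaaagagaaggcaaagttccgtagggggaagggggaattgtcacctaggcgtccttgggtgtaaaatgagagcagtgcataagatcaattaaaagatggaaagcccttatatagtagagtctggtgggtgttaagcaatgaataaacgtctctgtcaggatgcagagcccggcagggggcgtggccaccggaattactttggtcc

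Levels are given as the log2 of a probe's signal minus the log2 of the array's 75th percentile, so that 0 is the level of that percentile, and a level of 1 probe is never set against that of another. Every member except Arsb was well above background on both arrays of each of the 6 groups on the larger design, and Arsb was so on 1 of the 2 Neu arrays. Across these 6 groups the highest mean lay in CD8+ cDC for 11 members, in Neu for 7, in CDP for 6, in IRF8KO GMP for 5, in pre-cDC for 2 and in WT GMP for 1. The lowest mean lay in Neu for 9 members, in WT GMP for 9, in CD8+ cDC for 5, in pre-cDC for 4, in IRF8KO GMP for 3 and in CDP for 2. Neu thus held both many of the highest and many of the lowest means. The members did not follow 1 course: Naaa spanned 8.34 log2 units between groups, whereas Arsa spanned 0.69.

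**Figure D1:**
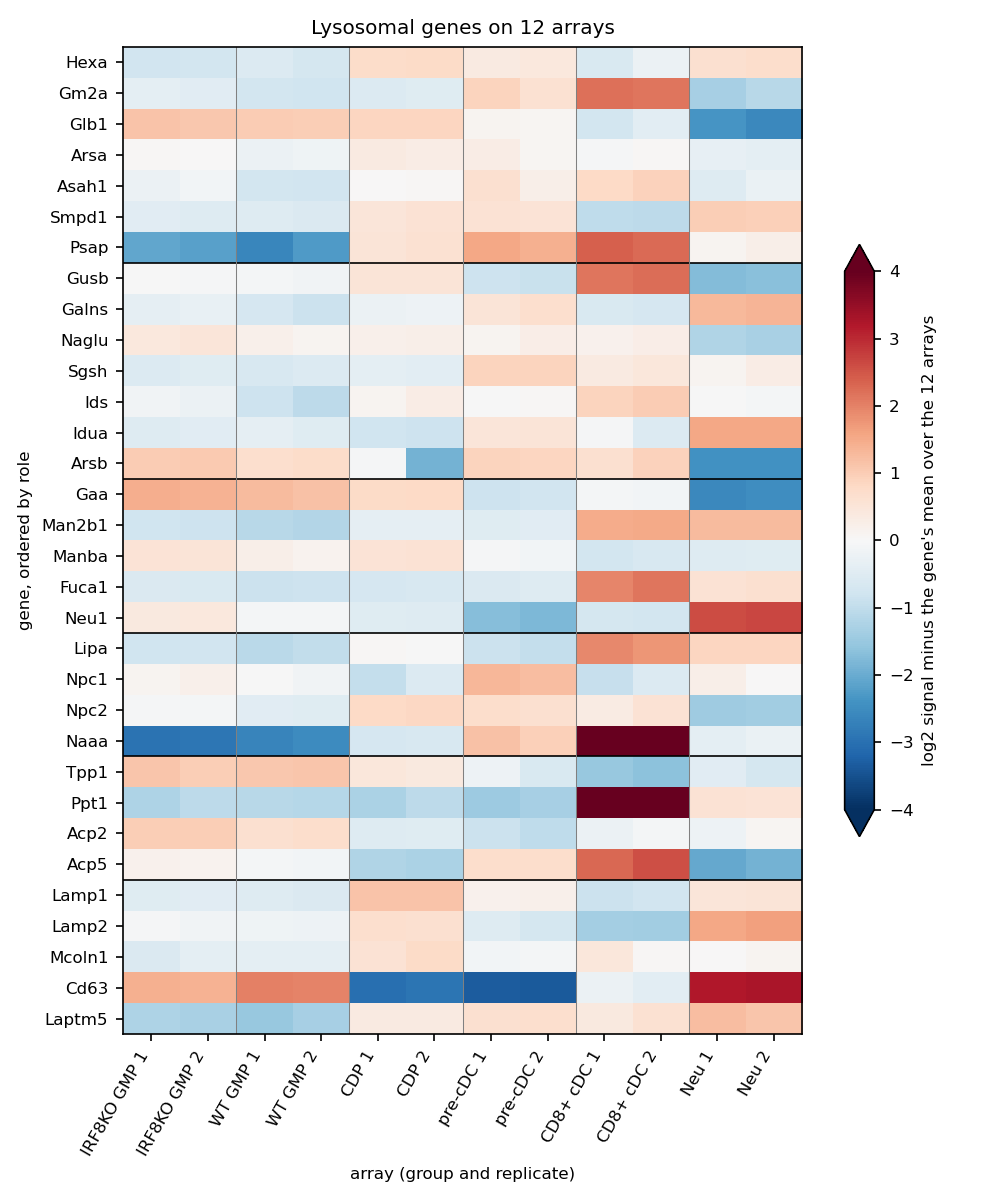
Each cell is the log2 signal of 1 gene (rows) on 1 of 12 arrays (columns), after the gene's mean over the 12 arrays was subtracted. Rows are ordered by role from sphingolipid genes at the top to membrane proteins at the bottom. The 2 arrays of each group look alike, with Arsb in CDP as the clearest exception, and Naaa and Ppt1 stand out in CD8+ cDC.

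The member with the widest range in each role is given here, and it does not stand for the rest of its role. Among the sphingolipid genes, for example, Smpd1 was lowest in CD8+ cDC, where Psap was highest. Psap encodes prosaposin, the precursor of the saposins that present sphingolipids to their hydrolases. It read 3.80 and 3.72 in IRF8KO GMP, 3.29 and 3.63 in WT GMP, 6.40 and 6.50 in CDP, 7.43 and 7.32 in pre-cDC, 8.28 and 8.15 in CD8+ cDC and 5.99 and 6.14 in Neu. The means ran in the order CD8+ cDC, pre-cDC, CDP, Neu, IRF8KO GMP and WT GMP, with no overlap between groups, although IRF8KO and WT GMP did not pass the test (log2 difference 0.30, limma adjusted p = 0.102). Gusb encodes beta-glucuronidase, which removes glucuronic acid from glycosaminoglycans. It read 4.49 and 4.48 in IRF8KO GMP, 4.45 and 4.39 in WT GMP, 5.05 and 5.04 in CDP, 3.70 and 3.62 in pre-cDC, 6.64 and 6.76 in CD8+ cDC and 2.78 and 2.83 in Neu. Its highest arrays were those of CD8+ cDC and its lowest those of Neu.

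Neu1 encodes the lysosomal sialidase. It read 3.76 and 3.77 in IRF8KO GMP, 3.30 and 3.27 in WT GMP, 2.89 and 2.85 in CDP, 1.66 and 1.58 in pre-cDC, 2.65 and 2.61 in CD8+ cDC and 5.97 and 6.02 in Neu. It was highest in Neu and lowest in pre-cDC, and no 2 groups overlapped. Naaa encodes an acid amidase that breaks down N-acylethanolamines, a class of fatty acid amides. It read -0.29 and -0.21 in IRF8KO GMP, 0.03 and 0.15 in WT GMP, 2.01 and 2.02 in CDP, 3.85 and 3.63 in pre-cDC, 8.12 and 8.05 in CD8+ cDC and 2.29 and 2.41 in Neu. Both CD8+ cDC arrays lay far above all others.

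Ppt1 encodes palmitoyl-protein thioesterase 1, which strips fatty acids from proteins in the lysosome. It read 0.35 and 0.51 in IRF8KO GMP, 0.46 and 0.44 in WT GMP, 0.32 and 0.54 in CDP, 0.13 and 0.25 in pre-cDC, 5.73 and 5.88 in CD8+ cDC and 2.16 and 2.13 in Neu. The GMP and CDP arrays overlapped, and CD8+ cDC stood above Neu and Neu above the rest. Cd63 encodes a tetraspanin of late endosomes and lysosomes that also sits in the primary granules of human neutrophils. It read 5.79 and 5.76 in IRF8KO GMP, 6.39 and 6.35 in WT GMP, 1.35 and 1.43 in CDP, 1.03 and 1.002 in pre-cDC, 4.12 and 3.94 in CD8+ cDC and 7.56 and 7.62 in Neu. The CDP and pre-cDC arrays were the lowest and the Neu arrays the highest.

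**Figure D2:**
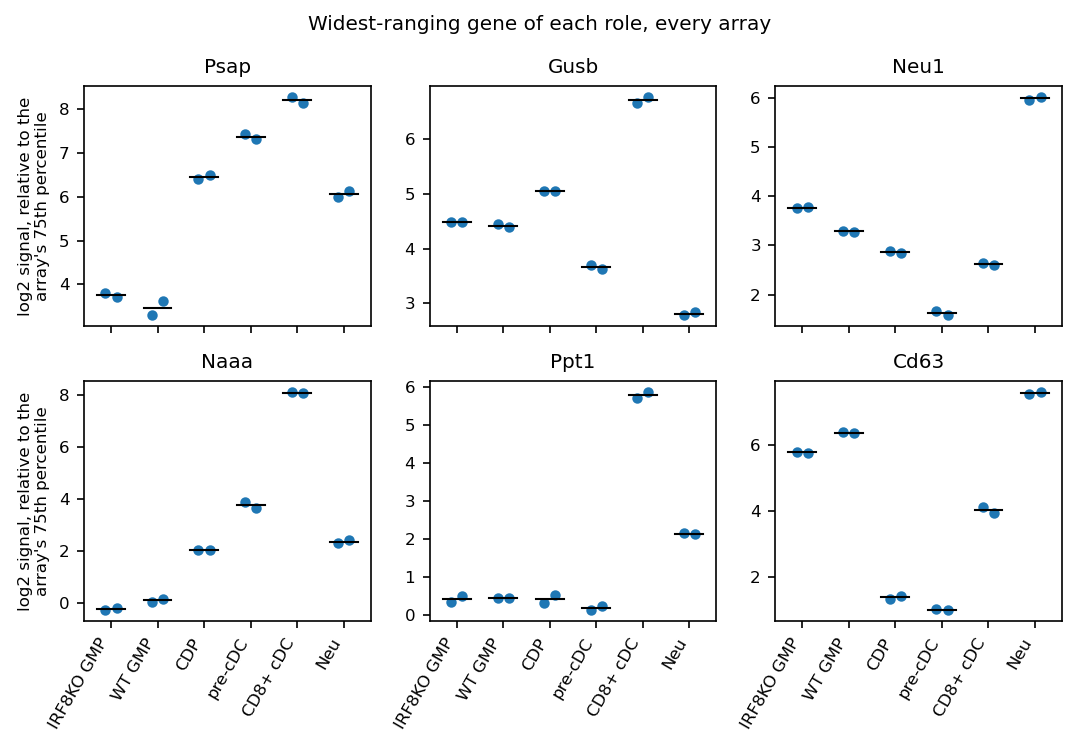
Points are single arrays, lines are group means and the y axis is log2 signal relative to the array's 75th percentile, with its own range in each panel. Psap, Gusb, Naaa and Ppt1 are highest in CD8+ cDC, while Neu1 and Cd63 are highest in Neu.

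In the arrays labelled IRF8KO, against WT GMP, the differences were small. With limma and Benjamini-Hochberg adjustment over 12156 genes, 11 of the 32 members were higher in IRF8KO GMP, 2 were lower and 19 did not pass an adjusted p of 0.05, and none differed 2-fold. Of all genes tested, 25.5% were called, 15.4% as higher and 10.1% as lower. The members' median difference was 0.23, beside 0.03 over all genes tested. In bulk RNA of this kind, fewer cells of a type and less RNA per cell cannot be told apart.

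All 5 enzymes of glycoprotein sugars and glycogen were called higher in IRF8KO GMP: Neu1 by 0.48, Manba (beta-mannosidase) by 0.35, Man2b1 (alpha-mannosidase) by 0.33, Fuca1 (alpha-fucosidase) by 0.25 and Gaa (the acid glucosidase that degrades glycogen) by 0.21. Gaa kept its call under 2 of 13 alternatives (adjusted p up to 0.286) and Fuca1 under 5, whereas Man2b1 and Manba kept theirs under 12 and lost it with the array median. A dimmer second probe of Fuca1, well above background on 1 of these 4 arrays, went the other way (-2.06). On the brightest probe of each gene, the most changed member was Ids, which removes a sulfate from iduronic acid in heparan and dermatan sulfate. It read -0.83 and -0.92 in IRF8KO GMP, against -1.54 and -1.76 in WT GMP, a log2 difference of 0.77 ± 0.10 (SE, n = 2 each, limma adjusted p = 0.00113). Asah1, acid ceramidase, read 1.74 and 1.84 in IRF8KO GMP, against 1.22 and 1.19 in WT GMP, a difference of 0.58 ± 0.14 (limma adjusted p = 0.0192). For both enzymes the arrays of the groups did not overlap. Asah1 kept its call under 7 of 13 alternatives and was at 0.19 on its other probe, well above background on all 4 arrays. Sgsh was not called at 0.08 on its brighter probe. Its other probe, also well above background on all 4 arrays, was higher by 0.84. The other members that were higher in IRF8KO GMP were Galns (0.45), the cholesterol carrier Npc2 (0.41), Naglu (0.29) and the acid lipase Lipa (0.24). Galns kept its call under all 13 alternatives, Npc2 under 11, Naglu under 6 and Lipa under 4.

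For Neu1, the third by size among the members that were higher, the per-array values given above did not overlap between IRF8KO and WT GMP, and its limma adjusted p was 0.000423. Cd63 was lower in IRF8KO GMP by 0.59 ± 0.07 on the log2 scale (limma adjusted p = 0.000669) and Naaa by 0.34 ± 0.09 (limma adjusted p = 0.0255), and neither overlapped between the groups. Cd63 kept its call under all 13 alternatives and Naaa under 7. None of the 4 members among peptidases, thioesterases and phosphatases was called. Among the other lysosomal genes, Igf2r, a receptor that sorts mannose 6-phosphate tagged enzymes to the lysosome, was higher in IRF8KO GMP by 1.36 (limma adjusted p = 4.6e-05), and Scpep1, a serine carboxypeptidase, by 0.83 (limma adjusted p = 0.00211). Of 17 proton pump genes tested, 6 were higher and 0 lower, led by Tcirg1 (0.57) and Atp6v1b2 (0.48). Of 12 transcription factor and nutrient sensing genes, 4 were higher and 0 lower, led by Fnip1 (0.48) and Mitf (0.33). Summed signals of 6 neutrophil markers were 34.7 and 32.7 times the percentile in IRF8KO GMP, against 9.47 and 9.27 in WT GMP, with 6 and 4 of the 6 well above background, and those of 5 monocyte markers were 78.1 and 85.4 in IRF8KO GMP, against 22.1 and 24.0 in WT GMP, with 5 and 4 of the 5 well above background. Erythroid markers summed to 0.699 and 0.706 in IRF8KO GMP, against 9.37 and 9.28 in WT GMP, and macrophage markers to 1.89 and 1.92 in IRF8KO GMP, against 3.34 and 3.25 in WT GMP. Their part in the members' differences was not tested.

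The count of called members in this comparison rests on close margins. Scaling each array to its median left 3 members higher and 1 lower, and leaving out any 1 of the 4 arrays left 5 to 7 higher and 1 lower. The calls of Ids, Galns, Neu1, Manba, Man2b1 and Cd63 were kept when any 1 array was left out.

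CDP differed far more from WT GMP. Of the members, 18 were higher in CDP, 9 were lower and 5 did not pass, with 77.9% of all 11899 genes called, 51.0% as higher and 26.9% as lower. The members' median difference was 0.45, beside 0.29 over all genes tested, so their shares were near those of the background. Under the other scalings the members' median lay between -0.0429 and 0.443, and its difference from the median of all genes between -0.188 and 0.16. Sphingolipid genes had 5 of 7 members higher and 0 lower. The membrane proteins had 4 of 5 higher and 1 lower, and the cholesterol and lipid genes 3 of 4 higher and 1 lower. Among peptidases, thioesterases and phosphatases, 0 were higher and 3 of 4 lower.

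Psap had the largest increase, at 7.95-fold in CDP (log2 difference 2.99 ± 0.12 SE, n = 2 each, limma adjusted p = 2.08e-07), with all CDP arrays above all WT GMP arrays. Naaa was 3.81-fold higher in CDP (log2 difference 1.93 ± 0.09, limma adjusted p = 4.15e-07). Laptm5, a transmembrane protein of blood cell lysosomes that limits antigen receptor levels in lymphocytes, read 5.45 and 5.48 in CDP, against 3.58 and 3.77 in WT GMP (3.46-fold, limma adjusted p = 1.08e-06). The arrays of CDP and WT GMP did not overlap for any of these. Further members at least 2-fold higher in CDP were Lamp1, an abundant glycoprotein of the lysosomal membrane (log2 difference 1.71), Hexa, a subunit of beta-hexosaminidase (1.37), Npc2 (1.28), Ids (1.15), the acid sphingomyelinase Smpd1 (1.08), the cation channel Mcoln1 (1.07) and Lipa (1.05).

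Cd63 was 31.6-fold lower in CDP (log2 difference -4.98 ± 0.07, limma adjusted p = 2.75e-09). Arsb, the sulfatase of dermatan and chondroitin sulfate, read -0.32 and -2.18 in CDP, against 0.40 and 0.47 in WT GMP (log2 difference -1.68 ± 0.49, limma adjusted p = 0.0131). The 2 CDP arrays lay far apart for this gene: the difference was -2.61 without CDP replicate 1 and -0.755 without CDP replicate 2. Acp2, a lysosomal acid phosphatase, read -1.67 and -1.64 in CDP, against -0.51 and -0.46 in WT GMP (log2 difference -1.17 ± 0.10, limma adjusted p = 1.32e-05). Acp5, the tartrate-resistant acid phosphatase, was lower by 1.14 in CDP. The remaining lower members were the peptidase Tpp1 (-0.68), the cholesterol transporter Npc1 (-0.66), Gaa (-0.44), Neu1 (-0.42) and Idua (-0.40).

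The scaling of the arrays sets part of this picture. Among all genes called, 65.5% were higher here and as few as 40.4% under another scaling, the median of all genes lay between -0.20 and 0.29, and the members split as 12 higher and 12 to 15 lower under 4 of the 5 other scalings. Fuca1 (0.18) and Manba (0.37) were called higher in CDP here and were below 0 under 4 of the 5. The members called alike under all 5 other scalings were 11 higher and 8 lower. Among the other lysosomal genes, Tfeb, the transcription factor that drives lysosomal genes, was higher in CDP by 1.65 (limma adjusted p = 6.29e-06) and Scpep1 by 4.07. Igf2r was not well above background in CDP and was at least 1.46-fold lower there. Of 17 proton pump genes, 10 were higher and 5 lower in CDP, and of 15 further hydrolases, 11 were higher and 4 lower. Monocyte marker signals summed to 352 and 347 in CDP, against 22.1 and 24.0 in WT GMP, and neutrophil markers to 0.668 and 0.648 in CDP, against 9.47 and 9.27 in WT GMP. Their part in the members' differences was not tested.

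From CDP to pre-cDC the members split both ways. In pre-cDC 11 were higher than in CDP, 14 were lower and 7 did not pass, with 83.9% of 11481 genes called, 25.3% as higher and 58.7% as lower. The members' median was -0.15, beside -0.49 over all genes tested. The glycosaminoglycan enzymes had 4 of 7 members higher and 1 lower. The glycoprotein and glycogen enzymes had 0 of 5 higher and 3 lower, and the membrane proteins 1 of 5 higher and 4 lower. Sgsh and Idua, counted as higher, and Gaa, counted as lower, went the other way on a second probe, as given below. These counts therefore depend in part on the probe used.

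Npc1, which moves cholesterol out of the lysosome, read 0.95 and 0.86 in pre-cDC, against -1.32 and -0.91 in CDP, a 4.06-fold increase (log2 difference 2.02 ± 0.16 SE, n = 2 each, limma adjusted p = 8.65e-06). Npc2, its soluble partner, did not pass (-0.15, limma adjusted p = 0.112). Acp5 read 2.99 and 2.99 in pre-cDC, against 1.10 and 1.04 in CDP (3.79-fold, limma adjusted p = 6.9e-07). The groups did not overlap for Npc1 or Acp5, nor for Arsb, which read 0.62 and 0.60 in pre-cDC, against -0.32 and -2.18 in CDP. The log2 difference of Arsb was 1.86 ± 0.49 (limma adjusted p = 0.00755), and 0.929 without CDP replicate 2. Naaa was higher in pre-cDC by 1.73 and Psap by 0.92.

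For 4 members with 2 probes, the probes disagreed. Idua, Sgsh and Gm2a were higher in pre-cDC by 1.31, 1.29 and 1.27 on their brighter probes, while their other probes read -0.38, -0.63 and -0.03. The other probe of Gm2a was well above background on 2 of the 4 arrays. Gaa was lower by 1.58 on its brighter probe and higher by 1.196 on the other, which was well above background on 2 of the 4 arrays. The values on the brighter probe of Gaa were 2.82 and 2.88 in pre-cDC, against 4.42 and 4.44 in CDP (limma adjusted p = 2.17e-07). Gusb was 2.61-fold lower in pre-cDC (log2 difference -1.38 ± 0.06, limma adjusted p = 3.35e-07). Lamp2, a membrane glycoprotein needed for chaperone-mediated autophagy, read 3.16 and 2.96 in pre-cDC, against 4.35 and 4.32 in CDP (log2 difference -1.28 ± 0.07, limma adjusted p = 1.47e-06). The arrays of pre-cDC and CDP did not overlap for these 3 genes. Neu1 (-1.25) and Lamp1 (-0.96) were also lower in pre-cDC.

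The members' median stood 0.346 to 0.546 above that of all genes under each scaling, but its excess was -0.27 with no filter on dim probes, and the counts moved with the scaling. Among all genes called, 30.1% were higher here, and 16.5% to 51.1% were under other scalings, and the members split from 9 higher and 21 lower (array median) to 19 higher and 6 lower (percentile over detected probes). Hexa, Asah1, Ppt1, Acp2, Cd63 and Laptm5 changed sign under at least 1 scaling, and their differences here were between -0.45 and 0.42. Tfeb was higher in pre-cDC by 1.64 (limma adjusted p = 5.62e-06), while 10 of the 12 genes of its list were lower and 1 higher. Tfec, a relative of TFEB, was not well above background in pre-cDC and was at least 5.57-fold lower there. Hyal2, a hyaluronidase, was lower in pre-cDC by 3.24. Summed neutrophil markers were 46.1 and 47.9 in pre-cDC, against 0.668 and 0.648 in CDP, with 5 and 1 of the 6 well above background, and their part in these differences was not tested.

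In CD8+ cDC, 16 members were higher than in pre-cDC, 12 were lower and 4 did not pass, with 74.8% of 12597 genes called, 39.9% as higher and 34.9% as lower. The median of the members was 0.17, beside 0.07 over all genes tested. Among the glycoprotein and glycogen enzymes, 4 of 5 were higher and 1 lower, and among peptidases, thioesterases and phosphatases 3 of 4 were higher and 1 lower. The glycosaminoglycan enzymes had 2 higher and 3 lower, and the sphingolipid genes 3 higher and 3 lower. Sgsh and Idua, counted as lower, and Gaa, counted as higher, went the other way on a second probe, as given below.

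Ppt1 was 49.0-fold higher in CD8+ cDC (log2 difference 5.61 ± 0.10 SE, n = 2 each, limma adjusted p = 4.56e-09), with arrays at 5.73 and 5.88 in CD8+ cDC, against 0.13 and 0.25 in pre-cDC. Naaa was 20.3-fold higher in CD8+ cDC (4.34 ± 0.09, limma adjusted p = 7.97e-09) and Gusb 8.25-fold (3.04 ± 0.06, limma adjusted p = 7.44e-09). The 3 genes act on unlike substrates, a fatty acid linked to protein, a fatty acid amide and a sugar acid, and none overlapped between the groups. Cd63 followed at 8.06-fold, Lipa, which frees cholesterol from its esters, at 6.78-fold, Fuca1 at 6.06-fold, Man2b1 at 3.90-fold, Acp5 at 3.38-fold and Gm2a, the activator protein of GM2 ganglioside breakdown, at 2.69-fold.

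Npc1 was 4.04-fold lower in CD8+ cDC, at -1.29 and -0.93, against 0.95 and 0.86 in pre-cDC (log2 difference -2.02 ± 0.16, limma adjusted p = 1.16e-05). Smpd1 read 2.88 and 2.87 in CD8+ cDC, against 4.49 and 4.44 in pre-cDC (-1.59 ± 0.05, limma adjusted p = 6.97e-08). Galns, the sulfatase of keratan sulfate, read 2.71 and 2.65 in CD8+ cDC, against 3.85 and 3.98 in pre-cDC (-1.23 ± 0.08, limma adjusted p = 3.09e-06). The CD8+ cDC arrays lay below the pre-cDC arrays for each of these. Tpp1 (-1.19) and Lamp1 (-0.996) were lower as well. Second probes of Sgsh, Idua and Gaa went against the brighter ones: Sgsh -0.48 and 2.15, Idua -0.79 and 0.49, Gaa 0.72 and -0.47, each with the brighter probe first.

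Other lysosomal genes also moved far. Igf2r was not well above background in pre-cDC and was at least 19.0-fold higher in CD8+ cDC. Fnip2, a partner of the nutrient sensor folliculin, was higher in CD8+ cDC by 3.91 and Laptm4b by 3.22, whereas the channel gene Tpcn1 was lower by 4.38 and Tfeb by 1.78. Of 17 proton pump genes, 6 were higher and 8 lower. Scaling each array to its median put 66.8% of all called genes higher, against 53.4% here, with 17 members higher and 10 lower, and Npc2, called lower here (-0.23), was at 0.0427 under it. Macrophage marker signals summed to 23.0 and 24.0 in CD8+ cDC, against 0.999 and 0.854 in pre-cDC, with 9 and at most 2 of 10 markers well above background. Erythroid markers summed to 163 and 176 in CD8+ cDC, against 3.97 and 4.16 in pre-cDC, with 2 of 4 well above background in each group. Of 2 erythroid markers tested, 1 was higher in CD8+ cDC and 1 lower. In CD8+ cDC, Siglec1 alone of the macrophage markers was not well above background. The part of such cells in the members' differences was not tested.

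Between Neu and WT GMP, 30 of the 32 members were called (93.8%), a share near that of all genes tested. In Neu 19 were higher and 11 lower, with 92.2% of 12520 genes called, 47.0% as higher and 45.1% as lower. The members' median was 0.85, beside 0.07 over all genes tested, and lay between 0.299 and 0.642 under the other scalings. It stood 0.475 to 0.779 above that of all genes under those, and 0.247 above with no filter on dim probes. All 5 membrane proteins were called higher in Neu, but Mcoln1 (0.46) kept its call under 0 of the 5 other scalings, where it lay between -0.092 and 0.177. The peptidases, thioesterases and phosphatases had 3 of 4 members lower and 1 higher.

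Neu1 was 6.55-fold higher in Neu (log2 difference 2.71 ± 0.05 SE, n = 2 each, limma adjusted p = 7.94e-10). Psap was 6.08-fold higher in Neu (2.60 ± 0.12, limma adjusted p = 1.05e-07). Laptm5 read 6.35 and 6.20 in Neu, against 3.58 and 3.77 in WT GMP (6.06-fold, limma adjusted p = 3.38e-08). The arrays did not overlap for these 3. Man2b1 (2.40), Naaa (2.26), Galns (2.10), Idua (1.97), Lipa (1.88), Lamp2 (1.78), Ppt1 (1.69), Smpd1 (1.52), Fuca1 (1.44), Hexa (1.29), Cd63 (1.22) and Lamp1 (1.05) were also at least 2-fold higher in Neu. Idua was so on its brighter probe alone, and its other probe, well above background on all 4 arrays, was higher by 0.41.

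Gaa read 1.08 and 1.17 in Neu, against 4.92 and 4.83 in WT GMP, and was 13.4-fold lower in Neu (log2 difference -3.75 ± 0.06, limma adjusted p = 3.69e-10). Glb1, the lysosomal beta-galactosidase, read 0.15 and -0.06 in Neu, against 3.52 and 3.49 in WT GMP (11.0-fold lower, limma adjusted p = 9.26e-09). Arsb read -2.70 and -2.69 in Neu, against 0.40 and 0.47 in WT GMP (-3.13 ± 0.49, limma adjusted p = 0.000333; -3.68 to -1.57 under other scalings), and 1 of its 2 Neu arrays was well above background. All 3 are enzymes that free single sugars or sulfates, and their Neu arrays lay well below those of WT GMP. Acp5 (-1.87), Tpp1 (-1.67), Gusb (-1.61) and Naglu (-1.40) were at least 2-fold lower as well. Gm2a was lower by 0.46 on its brighter probe and higher by 1.73 on a probe well above background on 1 of the 4 arrays.

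Outside the 33, 10 of 12 transcription factor and nutrient sensing genes were higher in Neu and 1 lower. Of 17 proton pump genes, 13 were higher and 3 lower, and of 15 further hydrolases, 10 and 5. Enzyme sorting genes had 5 of 8 higher and 3 lower, and further membrane proteins 9 of 13 and 4. Of all genes tested, 47.0% were higher and 45.1% lower. Among all genes called, 51% were higher here and 41.5% to 52.1% under other scalings. Tfeb was higher in Neu by 4.09 (limma adjusted p = 9.15e-09) and Tfe3, its close relative, by 3.95, while Tfec was not well above background in Neu and was at least 12.1-fold lower. Atp6v1g1 was the most increased pump gene (2.82), and Cln3, a membrane protein mutated in a childhood storage disease, was higher by 4.17. Scpep1 was not well above background in Neu and was at least 22.6-fold lower. Macrophage marker signals summed to 51.8 and 52.9 in Neu, against 3.34 and 3.25 in WT GMP. Most of the Neu sum came from Slc40a1, at 5.59 and 5.63 in Neu, against 0.35 and 0.33 in WT GMP. Of the 10 macrophage markers, 8 were well above background in Neu, against 5 to 6 in WT GMP. Of 8 tested, 6 were higher in Neu and 1, Vcam1, lower. The part of such cells in the members' differences was not tested. The comparisons of IRF8KO GMP, CDP and Neu share the 2 WT GMP arrays, so their values are not independent.

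**Figure D3:**
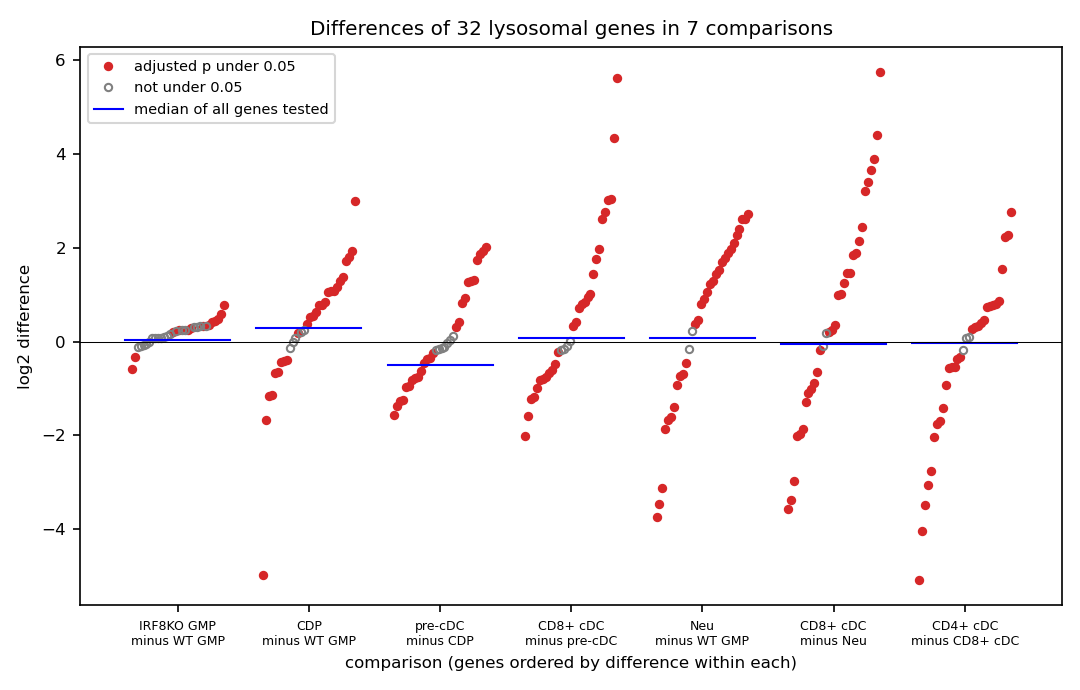
Each point is the log2 difference of 1 of 32 genes in 1 of 7 comparisons, ordered by size within each, filled where the limma adjusted p was under 0.05, and the blue line is the median over all genes tested. Points run to both sides of the line in every comparison, and those of IRF8KO GMP minus WT GMP stay within 1 log2 unit of 0.

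CD8+ cDC and neutrophils, both mature, were hybridised on the same slide. They came from spleen and bone marrow, so tissue and cell type cannot be told apart between them. Of the members, 93.8% were called, a share near that of all genes tested. In CD8+ cDC 18 members were higher than in Neu, 12 were lower and 2 did not pass, with 86.2% of 12817 genes called, 42.7% as higher and 43.5% as lower. The members' median was 0.30, beside -0.06 over all genes tested. The sphingolipid genes and the glycosaminoglycan enzymes each had 5 of 7 members higher in CD8+ cDC and 2 lower. By contrast, 0 of the 5 membrane proteins were higher and 4 were lower.

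Naaa, at 8.12 and 8.05 in CD8+ cDC, against 2.29 and 2.41 in Neu, was 53.2-fold higher in CD8+ cDC (log2 difference 5.73 ± 0.09 SE, n = 2 each, limma adjusted p = 3.97e-10). Acp5 read 4.61 and 4.90 in CD8+ cDC, against 0.27 and 0.42 in Neu (21.2-fold, limma adjusted p = 2.28e-09). Gusb was 14.9-fold higher in CD8+ cDC (limma adjusted p = 3.98e-10). None of these overlapped between the groups. Ppt1 (12.7-fold), Gm2a (10.5-fold), Gaa (5.45-fold), Psap (4.43-fold), Glb1 (3.70-fold) and Npc2 (3.59-fold) were also higher in CD8+ cDC. Arsb was well above background on 1 of the 2 Neu arrays, so its size is uncertain: the log2 difference was 3.21 here, 1.63 to 3.56 under other scalings and 2.43 on its other probe.

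Cd63 was 11.8-fold lower in CD8+ cDC (log2 difference -3.56 ± 0.07, limma adjusted p = 1.17e-09) and Neu1 10.3-fold lower (-3.37 ± 0.05, limma adjusted p = 3.98e-10). Lamp2 read 2.33 and 2.29 in CD8+ cDC, against 5.23 and 5.33 in Neu (7.84-fold lower, limma adjusted p = 4.72e-09). The Neu arrays lay above the CD8+ cDC arrays for all 3. Smpd1 (-2.004), Galns (-1.97), Idua (-1.86) and Lamp1 (-1.30) were also lower in CD8+ cDC. The other probe of Idua, well above background on all 4 arrays, was at -0.30. Man2b1 (0.24) and Manba (-0.18) were called here and changed sign under at least 1 scaling. Of the pump genes, 3 of 17 were higher in CD8+ cDC and 13 lower, led by Atp6v0a1 (-3.43), and of the transcription factor and nutrient sensing genes tested, 1 of 11 was higher and 8 lower, with Tfeb at -2.59. Scpep1 was at least 101-fold and Laptm4b at least 38.1-fold higher in CD8+ cDC, since neither was well above background in Neu. Erythroid marker signals summed to 163 and 176 in CD8+ cDC, against 5.98 and 6.36 in Neu. Macrophage markers summed to 23.0 and 24.0 in CD8+ cDC, against 51.8 and 52.9 in Neu. Most of that Neu sum came from Slc40a1, at 5.59 and 5.63 in Neu, against 0.92 and 0.96 in CD8+ cDC. Of 9 macrophage markers tested, 8 were higher in CD8+ cDC and 1, Slc40a1, lower, with a median log2 difference of 2.20. The part of such cells in the members' differences was not tested.

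The 2 kinds of splenic dendritic cell were compared on the 39429 probes that both array designs hold, with the 75th percentile taken over these, so that levels below are not on the scale used above. Array design, slide and purification differ between the groups together with cell type and cannot be told apart from it. In CD4+ cDC 14 members were higher than in CD8+ cDC, 15 were lower and 3 did not pass, with 74.9% of 13547 genes called, 36.3% as higher and 38.6% as lower. The members' median was -0.04, beside -0.02 over all genes tested. The glycosaminoglycan enzymes had 6 of 7 members lower in CD4+ cDC and 1 higher. The membrane proteins had 4 of 5 higher and 0 lower, and the peptidases, thioesterases and phosphatases 3 of 4 higher and 1 lower.

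Naaa read 2.20 and 1.96 in CD4+ cDC, against 7.19 and 7.12 in CD8+ cDC, and was 33.7-fold lower in CD4+ cDC (log2 difference -5.07 ± 0.10 SE, n = 2 each, limma adjusted p = 2.33e-09). Ppt1 read 0.88 and 0.80 in CD4+ cDC, against 4.80 and 4.95 in CD8+ cDC (16.4-fold lower, limma adjusted p = 5.63e-09). Gusb read 2.31 and 2.26 in CD4+ cDC, against 5.72 and 5.83 in CD8+ cDC (11.2-fold lower, limma adjusted p = 1.14e-09). These were also the 3 enzymes with the largest increases of CD8+ cDC over pre-cDC, and both comparisons use the CD8+ cDC arrays. Fuca1 (8.33-fold), Arsb (6.81-fold), Sgsh (4.09-fold), Galns (3.37-fold), Psap (3.25-fold) and Npc2 (2.69-fold) were lower in CD4+ cDC too.

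Acp5 read 6.72 and 6.45 in CD4+ cDC, against 3.68 and 3.96 in CD8+ cDC (6.78-fold higher, log2 difference 2.76 ± 0.11, limma adjusted p = 1.02e-07). Npc1 read 0.24 and 0.22 in CD4+ cDC, against -2.22 and -1.87 in CD8+ cDC (4.82-fold higher, limma adjusted p = 1.78e-06). Acp2 read 0.18 and -0.19 in CD4+ cDC, against -2.31 and -2.17 in CD8+ cDC (4.70-fold higher, limma adjusted p = 6.51e-07). Tpp1 was 2.92-fold higher, and none of these 4 overlapped between the groups. Npc1 and Npc2, which act in turn on the same cholesterol, were called in opposite directions. Gm2a (-0.33) was called lower here and under 0 of the 5 other scalings, where its difference lay between -0.124 and 0.0274. Man2b1 (-0.55) kept its call under 3 of the 5 and was called higher with quantile normalization (0.28) and in the authors' deposited table (0.28). With the array median as the scale, 63.6% of all called genes were higher in CD4+ cDC, against 48.5% here, and the members split as 16 higher and 11 lower.

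**Figure D4:**
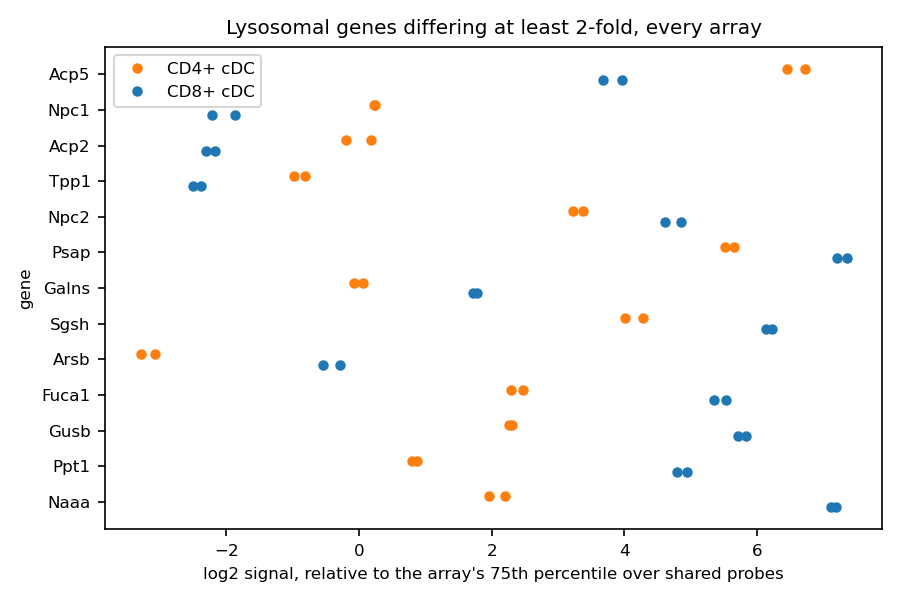
Each row is 1 of the 13 members called with at least a 2-fold difference between CD4+ cDC and CD8+ cDC, and each point is 1 array on the log2 scale relative to the percentile over shared probes. The groups do not overlap in any row, with CD4+ cDC to the right for Acp5, Npc1, Acp2 and Tpp1 and to the left for the other 9.

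Other cell types' markers also differed between the splenic groups. Macrophage marker signals summed to 73.4 and 26.9 in CD4+ cDC, against 12.1 and 12.6 in CD8+ cDC on the same scale, with 10 and 9 of 10 well above background. All 10 were higher on CD4+ cDC replicate 1 than on replicate 2, by a median of 1.55 log2 units. Of the 32 members, 23 were higher on replicate 1. The members' differences between those arrays ran from -0.42 to 0.43, with a median of 0.09. Without CD4+ cDC replicate 1, 12 members were higher and 15 lower. The difference of Cd63 was 0.33 with that array and 0.11 without it (limma adjusted p = 0.261). Erythroid markers summed to 300 and 406 in CD4+ cDC, against 85.5 and 92.3 in CD8+ cDC, and neutrophil markers to 26.2 and 34.7 in CD4+ cDC, against 10.1 and 9.52 in CD8+ cDC. Monocyte markers summed to 11.6 and 13.7 in CD4+ cDC, against 2.87 and 2.75 in CD8+ cDC, and B cell markers to 10.5 and 11.3 in CD4+ cDC, against 3.18 and 3.22 in CD8+ cDC. Their part in the members' differences was not tested. Of the genes outside the 33, Laptm4b (-4.32), Fnip2 (-3.94), Igf2r (-3.43) and Dnase2a (-2.62) were lower in CD4+ cDC, and Tfeb (2.29) and the pump accessory gene Atp6ap1 (1.32) were higher.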

How the data were processed

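RNA of 14 sorted samples was hybridised to single-colour Agilent arrays. The intensity of each spot was made by Agilent Feature Extraction 10.7.3.1, per the file headers, which subtracts background within an array and does not normalize between arrays. The authors also deposited a table of intensity values for 39429 probes, whose scale matched quantile-normalized processed signals and whose preparation no source used here describes.

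Control spots and spots flagged as outliers were left out, log2 values were averaged over a probe's spots, and the 75th percentile of the array was then subtracted. Of the probes, 26762 had 1 RefSeq symbol, giving 20284 genes, and the brightest probe stood for the gene (11 members had 2 probes). A probe was well above background where at least 0.5 of its spots were so marked. No spot was saturated. Fits used limma 3.58.1 in R 4.3.3 (lmFit, eBayes, two-sided) on the 12 arrays of the larger design, or on all 14 for CD4+ cDC, with Benjamini-Hochberg adjustment over genes that were well above background on each array of a compared group, and calls at an adjusted p under 0.05. Promoters and figures used Python 3.11.15. The fit was tested on simulated data.

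For a gene above background on no array of the dimmer group, the bound sets the brighter mean against the higher of the array's lowest well-measured signal and the probe's own. Summed marker signals are in multiples of the percentile. Alternatives were 5 other scalings or signals (normexp with offset 50, on median foreground signals since mean ones were not used here, quantile normalization, array median, percentile over detected probes, and the authors' table), no filter on dim probes, the mean over probes, a replicate block, fits of 4 arrays, and leaving out each array. Members and lists were chosen with earlier results of these data known. Values on every array are given for up to 3 called members in each direction per comparison and for the widest-ranging member of each role, and of the other lists at most the 4 with the largest called differences are named. The number of arrays limits the precision. For 1 gene among the other lysosomal lists, values are left out of the text, and it stays in the counts of its list.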

Additional observations from a re-analysis of the deposited data

How the results depend on the processing

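The member differences called in the main setting, 182 over the 7 comparisons, were recomputed under the alternatives. Members not called there are left out of this count. Of 2337 recomputed values, 2132 kept their direction and side of the threshold, 173 kept their direction and lost the call, and 32 turned round. In IRF8KO GMP minus WT GMP, 118 of 169 kept both, 50 lost the call and 1 turned round. In CDP minus WT GMP, Manba and Fuca1 were at -0.0663 and -0.21 with normexp, -0.0247 and -0.28 with quantile normalization, -0.12 and -0.31 with the percentile over detected probes, and -0.0262 and -0.28 in the authors' table. In pre-cDC minus CDP, Hexa was at 0.25 with quantile normalization and 0.30 in the authors' table, Asah1 and Laptm5 at -0.10 and -0.22 with the array median, and Hexa, Ppt1, Acp2 and Cd63 at 0.15, 0.27, 0.0586 and 0.14 with the percentile over detected probes. In CD8+ cDC minus pre-cDC, Npc2 was at 0.0427 with the array median. In Neu minus WT GMP, Asah1 and Mcoln1 were at -0.18 and -0.092 with the array median, and Asah1 at -0.00847 with the percentile over detected probes. In CD8+ cDC minus Neu, Man2b1 was at -0.10 with quantile normalization and -0.13 in the authors' table, and Manba at 0.11 with the array median and 0.16 with the percentile over detected probes. In CD4+ cDC minus CD8+ cDC, Gm2a and Man2b1 were at 0.0267 and 0.28 with quantile normalization, and at 0.0274 and 0.28 in the authors' table. With the mean over probes, Fuca1 was at -0.91 in IRF8KO GMP minus WT GMP and -0.63 in CDP minus WT GMP, Sgsh at 0.84 in CD8+ cDC minus pre-cDC and Gm2a at 0.64 in Neu minus WT GMP, which follows from the probe disagreements given above. The cause of the others was not tested.

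In IRF8KO GMP minus WT GMP, the array median gave 3 members higher and 1 lower among 1485 genes called, against 11, 2 and 3097 in the main setting, and no filter on dim probes gave 7 higher and 1 lower. Leaving out 1 array there gave 5 to 7 higher, 1 to 1 lower and 1882 to 1998 genes called. In CDP minus WT GMP, the percentile over detected probes gave 15 members lower. In pre-cDC minus CDP, the percentile over detected probes gave 19 members higher and 6 lower, the authors' table gave 18 higher and quantile normalization 17. Counts of members stayed within 1.5 times the main count under the other alternatives run.

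The replicate numbers did not pair the samples: deviations of same-numbered arrays correlated between -0.0756 and 0.023. With the replicate number as a block, 9 members were higher and 2 lower in IRF8KO GMP, 19 and 9 in CDP, and 15 and 12 in CD8+ cDC minus pre-cDC, and the other counts were as given. With 2 arrays a group, and a lone array taken to vary like the others when its partner is left out, differences near the threshold are uncertain. Signal over background limits Arsb in Neu and the genes given with bounds.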
